A study of Zea mays with 2 samples.

Results

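The genes described here are 5 maize gene models of apoplastic sugar uptake at the kernel base, taken by identifier from the 41406 models in the files: the invertase genes mn1 (GRMZM2G119689) and incw1 (GRMZM2G139300), whose enzymes act in the cell wall, and 3 models of the SWEET4 transporter clade, GRMZM2G137954, GRMZM2G000812 and GRMZM2G144581. Transcript levels had been measured by RNA-seq in endosperm, the storage tissue of the maize (Zea mays) kernel, at 15 days after pollination, in the defective kernel mutant dek44 and in wild type. Each genotype has 1 library in the labels, although the series text speaks of triplicates, so differences between them rest on a single pair of libraries and were not tested; whether a library pools several kernels is not stated in the labels or headers. The labels name the mutant as dek44 with no allele, background strain or parentage. The transcript of the dek44 locus itself was not analysed here, so the labels were not checked on it.

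Sucrose reaches the maize kernel through maternal tissue that has no cell connections to the endosperm. At the base of the endosperm, in the transfer cell layer, cell wall invertase splits sucrose in the cell wall space into glucose and fructose. Membrane transporters of the SWEET family then carry hexoses into the transfer cells. Loss of the invertase encoded by mn1 gives the miniature kernel phenotype, and loss of the transporter known as SWEET4c also leaves kernels poorly filled. Incw1 encodes another cell wall invertase.

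The letters of the SWEET4 names need care. Neither the files nor the RefSeq gene table name these 3 models as SWEET genes. In the list used to choose them GRMZM2G144581 stood as SWEET4c, GRMZM2G000812 as SWEET4a and GRMZM2G137954 as SWEET4b. SWEET4c is known as the abundant transporter of the kernel base, whereas GRMZM2G144581 was low in both libraries and GRMZM2G137954 was abundant in both. The values thus go against the letters given, and the models are called by identifier.

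Both invertase genes had higher values in the dek44 library, incw1 by a larger factor than mn1, whereas the abundant SWEET4 model was higher by less than the median gene and the other 2 SWEET4 models stayed below an RPKM of 1 in both libraries. RPKM divides reads by gene length and by library size, so levels of different genes can be set side by side. Ratios are given as log2((dek44 RPKM + 1)/(wild-type RPKM + 1)), a scale on which low genes appear less changed than they are. A gene counted as expressed when its RPKM reached 1 in either library, and as changed when this ratio reached 2-fold. Of the 5 models 3 were expressed; 2 of these were at least 2-fold higher in dek44 and 0 at least 2-fold lower. One of the 2, incw1, was expressed only by its dek44 level, so the count is a description and no support for a shift of the group. Among all 30136 expressed genes 31.6% were at least 2-fold higher in dek44 and 3.70% at least 2-fold lower, and the median log2 ratio was 0.62. With that median subtracted from every ratio, the background became 12.3% higher and 10.9% lower, and the counts among the 3 expressed models were again 2 higher and 0 lower. They were the same under 3 further scalings, where the background was 12.2% higher and 11% lower with the trimmed mean of ratios set to 0, 24.6% and 4.94% with RPKM rescaled to the sum without the zeins, and 16% and 9.08% with RPKM rescaled to the sum without the 100 most abundant genes. In these bulk libraries fewer cells of a type and less RNA per cell cannot be told apart, and neither can more cells and more RNA per cell.

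**Figure D1:**
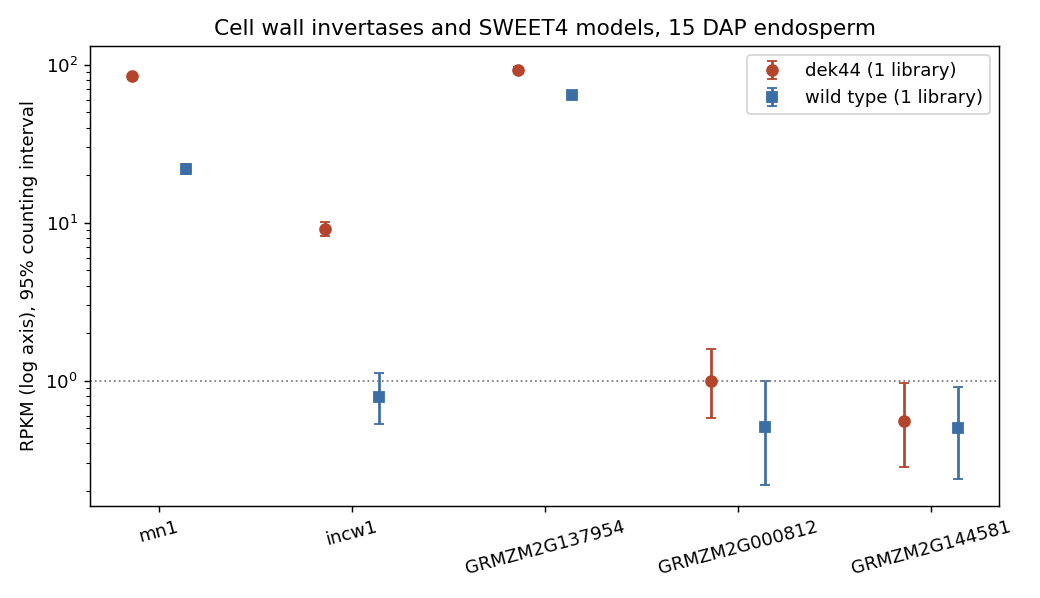
RPKM (log axis) of the 5 gene models in the dek44 library (circles) and the wild-type library (squares), 1 library each; bars are 95% Poisson counting intervals and the dotted line marks an RPKM of 1. Mn1 and incw1 lie higher in dek44 with intervals that do not overlap, while GRMZM2G000812 and GRMZM2G144581 have overlapping intervals below or across the line.

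Mn1, the main cell wall invertase gene of the endosperm base, had an RPKM of 84.6 in the dek44 library (95% exact Poisson interval 81.8 to 87.5) and 21.9 in wild type (20.4 to 23.5). That was a 3.86-fold higher level in dek44, with a 95% interval of 3.58 to 4.17 from counting error. The log2 ratio was 1.90, above that of 92.0% of expressed genes. By level mn1 ranked 2369 among the 41406 models in dek44, against 5760 in wild type. The interval rests on at least 3404 reads in dek44, against 813 in wild type.

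Incw1 had an RPKM of 9.19 in dek44 (8.29 to 10.2), against 0.784 in wild type (0.529 to 1.12). It was 11.7-fold higher in dek44 (8.07 to 17.6), and this interval lies wholly above that of mn1. The log2 ratio was 2.51, a scale on which the added 1 shrinks the difference of so low a wild-type value, and exceeded that of 96.7% of expressed genes. By level incw1 ranked 14867 in dek44, against rank 26344 in wild type. Its smallest read numbers were 381 in dek44, against 30 in wild type.

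Together the invertase pair summed to an RPKM of 93.8 in dek44, against 22.7 in wild type, a ratio of 4.13. Incw1 made up 9.80% of that sum in dek44, against 3.46% in wild type. Mn1 stayed the more abundant of the pair in both libraries, at 9.21 times the RPKM of incw1 in dek44, against 27.9 times in wild type. A further cell wall invertase gene, which the RefSeq table names incw3, was not analysed here.

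GRMZM2G137954, the abundant SWEET4 model, had an RPKM of 92.7 in dek44 (88.2 to 97.3), against 64.3 in wild type (60.4 to 68.3). It was 1.44-fold higher in dek44 (1.33 to 1.56), beyond counting error but under 2-fold. The log2 ratio of 0.52 lay below the median of all expressed genes, and 44.5% of them had a lower ratio. The direction depends on the scaling: after subtraction of the overall median the log2 ratio was -0.10. Its rank by level was nearly the same in both libraries, 2137 in dek44, against 2009 in wild type.

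GRMZM2G000812 had an RPKM of 0.994 in dek44 (0.579 to 1.59), against 0.507 in wild type (0.219 to 0.9995). The dek44 value lies just under the filter of 1. The fold was 1.96 with an interval of 0.802 to 5.25, from as few as 17 reads in dek44, against 8 in wild type. On these smallest read numbers a difference was not detectable. The true reads may be a multiple, which would narrow the interval, so whether this model differed is not settled. GRMZM2G144581 had 0.552 in dek44 (0.285 to 0.965), against 0.499 in wild type (0.239 to 0.917). Its fold of 1.11 had an interval of 0.438 to 2.86, from as few as 12 reads in dek44, against 10 in wild type. Again no difference was detectable on the smallest read numbers.

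The 3 SWEET4 models summed to an RPKM of 94.2 in dek44, against 65.3 in wild type, a ratio of 1.44. GRMZM2G137954 held nearly all of this sum, 98.4% in dek44, against 98.5% in wild type. The order of levels among them was the same in both libraries, but the intervals of the lower pair, from the smallest read numbers, overlapped. Near-identical copies could have shared or lost reads in the authors' counting, whose rule no label or header states, so the split among the SWEET4 models is uncertain. Sequences of these genes were not used here, so how alike they are was not measured.

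The invertase and the transporter therefore stood in different proportion in the 2 libraries. Mn1 had 0.913 times the RPKM of GRMZM2G137954 in dek44, against 0.341 times in wild type. The summed invertase RPKM was 0.995 times the summed SWEET4 RPKM in dek44, against 0.347 times in wild type. These quotients are taken within a library and do not depend on how the libraries are scaled to each other. The counting interval of the mn1 fold (3.58 to 4.17) and that of the GRMZM2G137954 fold (1.33 to 1.56) do not overlap. All 5 models together summed to an RPKM of 188 in dek44, against 87.9 in wild type.

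**Figure D2:**
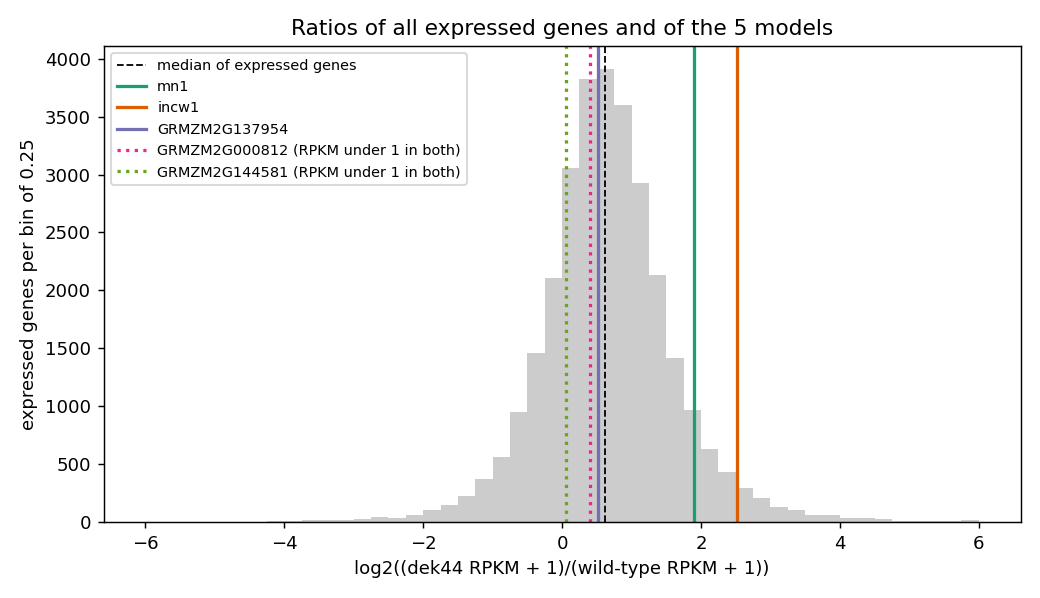
Number of expressed genes in bins of 0.25 by log2((dek44 RPKM + 1)/(wild-type RPKM + 1)), with ratios beyond 6 in either direction placed in the end bins; coloured lines mark the 5 models, dotted where RPKM was under 1 in both libraries. Mn1 at 1.90 and incw1 at 2.51 lie in the right-hand flank, and GRMZM2G137954 at 0.52 lies beside the median of 0.62.

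Basal transfer layer markers, from the cells in which mn1 is known to be expressed, moved with the invertases. Of 15 marker models in the files, found by name, 14 were expressed and 14 were at least 2-fold higher in dek44, beside 31.6% of all expressed genes. After subtraction of the overall median 13 were, beside 12.3%, and 1 marker, ebe1, was expressed only by its dek44 level. Their summed RPKM was 5313 in dek44, against 905 in wild type, a ratio of 5.87, and none was at 0 in either library. A model with the symbol MRP1 was left out after its values were seen, since it also carries the name mrpa1 and may be another gene. The marker models GRMZM2G088896 and GRMZM2G094054 share the RefSeq entry named meg2. The marker counts and the sum may therefore hold the same gene more than once. The expressed markers ranged from an RPKM of 15.9 to 1430 in dek44 and from 0.263 to 414 in wild type. The model named BETL1 (GRMZM2G082785), whose name is shared by the betl genes of the layer, was low in both libraries, with an RPKM of 0.694 in dek44, against 0.564 in wild type. The part of these markers' shift in the invertase values was not tested.

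Most of these markers had larger ratios than the sugar uptake genes. The markers' folds ran from 2.55 to 110 with a median of 9.96. Of the 14 expressed markers 13 had a higher log2 ratio than mn1, 11 a higher one than incw1 and 14 a higher one than GRMZM2G137954. For incw1 this order rests on the added 1, which shrinks its ratio. By plain fold incw1, at 11.7, lay above the marker median, and most markers had a smaller fold than incw1. Mn1 equalled 1.59% of the summed marker RPKM in dek44, against 2.42% in wild type. GRMZM2G137954 equalled 1.74% in dek44, against 7.10% in wild type.

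**Figure D3:**
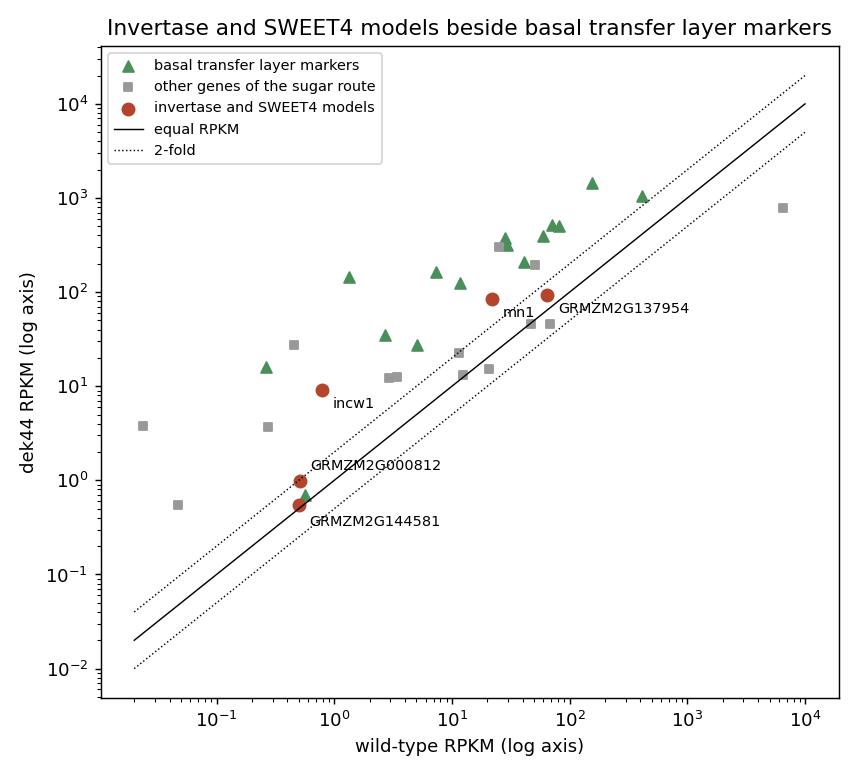
RPKM in the dek44 library (vertical) against RPKM in the wild-type library (horizontal), both on log axes. Shown are the 5 models (red), 15 basal transfer layer markers (green triangles) and 14 other genes with sugar route names (grey squares). The solid line marks equal RPKM and the dotted lines 2-fold. Mn1 and incw1 lie above the upper dotted line with 14 of the markers, and GRMZM2G137954 lies between the lines.

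Other cell types were checked by name in the same way, to see what the libraries held. The label endosperm was matched by zeins, the storage proteins of starchy endosperm, whose 29 models summed to an RPKM of 48597 in dek44, against 300897 in wild type, with 1 of them at 0 in dek44. The 2 models of the embryo-surrounding region summed to 118 in dek44, against 8.27 in wild type. The 5 aleurone models summed to 366 in dek44, against 318 in wild type, a sum of members that differed in direction: vpp1 had 133 in dek44, against 35.8 in wild type, and Nkd1 had 81.3 in dek44, against 171 in wild type. The 5 embryo models summed to 483 in dek44, against 404 in wild type, most of it from ole1 with 372 in dek44, against 289 in wild type. Among the rest ocl1 had 10.7 in dek44, against 0.617 in wild type, and ole17 had 59.4 in dek44, against 89.97 in wild type. None of the aleurone or embryo models was at 0. A model that shares the symbol GLB1 but also carries the haemoglobin name Hb was left out of the embryo list after its values were seen. Sh2 and bt2, which encode subunits of the enzyme that makes the glucose donor for starch, summed to 705 in dek44, against 6712 in wild type. Green tissue models were near 0, at sums of 2.30 in dek44, against 0.912 in wild type. The part of these cell types in the values of the 5 models was not tested.

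Among the wider sugar route were genes that were higher, lower and within 2-fold. Beside the 5 models, 14 genes carried names of sucrose cleavage, sugar transport or hexose phosphorylation, and 13 were expressed. Of these 7 were at least 2-fold higher in dek44, 1 at least 2-fold lower and 5 within 2-fold, beside 31.6% higher and 3.70% lower among all expressed genes. After subtraction of the overall median the counts were 6 higher and 3 lower, beside 12.3% and 10.9%. Of the 7, 3 (IVR1, TMT and MST1) were expressed only by their dek44 level. TMT, with the highest log2 ratio of the list at 4.30, was matched by its symbol alone and may be another gene. The counts and the median include it and were not recomputed without it. The median log2 ratio of 1.60, beside 0.62 for all expressed genes, was 0.91 with a filter at RPKM 5, 0.74 with a pseudocount of 5 and 0.98 after subtraction of the overall median. No gene in the files matched the invertase inhibitor names, and no further gene matched those of cell wall invertases or SWEET transporters. Such genes may still be present, since only 40.3% of identifiers had a name and the SWEET4 models themselves carried no SWEET name.

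The soluble invertases found by name, of the kind that splits sucrose in the vacuole, were low beside the main cell wall enzyme. IVR1 (GRMZM2G394450) had an RPKM of 3.83 in dek44, against 0.0238 in wild type, where its smallest read number was 1. The ratio was 161 with an interval of 28.4 to 6376. Ivr2 (GRMZM2G089836) had 0.547 in dek44, against 0.0475 in wild type, 11.5-fold higher by an interval of 2.88 to 100.5, but stayed under the filter. Of the 4 invertase genes looked at here (mn1, incw1, IVR1 and ivr2), mn1 had the highest RPKM in both libraries. Names reached only 40.3% of the identifiers, so further invertase genes may stand among the unnamed models.

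Sucrose synthases offer the other way to cleave sucrose, inside the cell. Sh1 (GRMZM2G089713) was by far the most abundant gene of the route, with an RPKM of 788 in dek44, against 6565 in wild type, and was the 1 gene at least 2-fold lower. Sus1 (GRMZM2G152908) had 195 in dek44, against 50.97 in wild type, a fold of 3.82 (3.66 to 3.99) whose interval overlaps that of mn1. The RPKM of mn1 was thus lower than that of sus1 in both libraries.

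Sucrose transporters, which carry uncleaved sucrose across membranes, were moderate in level. Sut4 (GRMZM2G307561) had an RPKM of 22.7 in dek44, against 11.6 in wild type, a log2 ratio of 0.91. Sut2 (GRMZM2G145107) had 13.2 in dek44, against 12.5 in wild type. The third of them, sut1 (GRMZM2G034302), was the 1 sucrose transporter past 2-fold, at 12.2 in dek44, against 2.94 in wild type.

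Among genes with hexose transporter names, the plastid glucose transporter gene pGlcT (GRMZM2G153704) had an RPKM of 46.4 in dek44, against 68.2 in wild type. Its log2 ratio was -0.55, within 2-fold, but -1.17 after subtraction of the overall median, past 2-fold lower. The gene named TMT (GRMZM2G035213), listed by its symbol alone, had 27.7 in dek44, against 0.454 in wild type. Unrelated genes can share a symbol, and whether TMT encodes a hexose transporter was not checked. The remaining one, MST1, was also at least 2-fold higher. The abundant SWEET4 model thus had a higher RPKM in dek44 than any of these, and in wild type stood close below pGlcT.

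Hexoses that enter the cell are phosphorylated by hexokinases and fructokinases. The fructokinase gene frk2 (GRMZM2G051677) had an RPKM of 299 in dek44, against 25.3 in wild type, 11.8-fold higher (10.8 to 12.9), which is close to the fold of incw1. Frk1 (GRMZM2G086845) was within 2-fold, at 15.3 in dek44, against 20.7 in wild type. After subtraction of the overall median its log2 ratio was -1.03, past 2-fold lower. The remaining gene, hex2, was at least 2-fold higher in dek44, yet its log2 ratio was 0.98, short of 2-fold, once the median of all genes was subtracted.

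**Figure D4:**
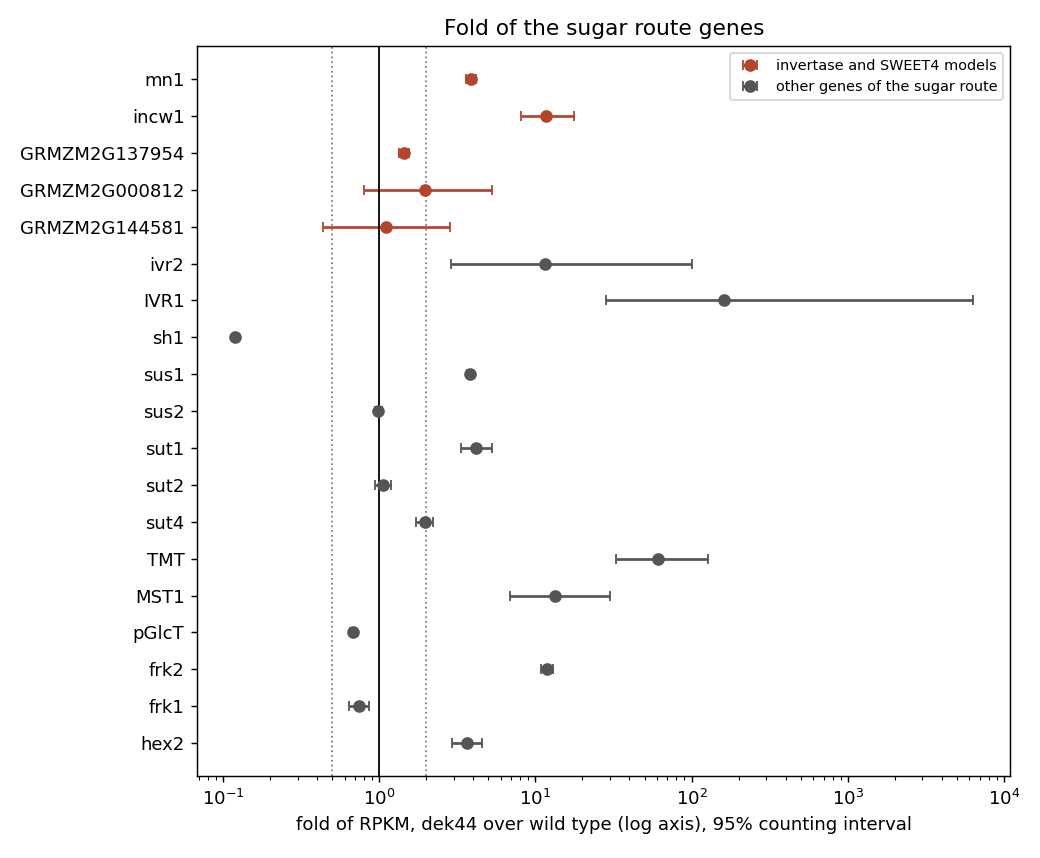
Fold of RPKM, dek44 over wild type (log axis), for the 5 models (red) and 14 other genes with sugar route names (grey). Bars are 95% counting intervals from the smallest whole reads. The solid line marks equality and the dotted lines 2-fold in each direction. Both invertases lie right of the upper dotted line, GRMZM2G137954 lies at 1.44 and sh1 lies far to the left.

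In the order of genes on the RefSeq assembly, which is not the build of the files, GRMZM2G137954 and GRMZM2G144581 were direct neighbours, with 0 protein-coding genes between them, and 4 such genes lay between GRMZM2G137954 and GRMZM2G000812. Incw1 and mn1 were not near them. Adjacent models thus differed greatly in level, with RPKM values of 92.7 and 0.552 in dek44 and of 64.3 and 0.499 in wild type. The next gene beyond this pair, GRMZM2G349996, had 22.1 in dek44, against 2.25 in wild type, and the one after it, GRMZM2G103864, had 106.6 in dek44, against 20.1 in wild type. On each side of each of the 5, the 3 nearest models that could be placed through RefSeq names were taken. Genes without such a match were passed over, and up to 10 protein-coding genes, matched ones included, lay in between. In this way 18 other models were found and 14 were expressed. Of these 8 were at least 2-fold higher in dek44 and 0 at least 2-fold lower, beside 31.6% and 3.70% of all expressed genes, and their median log2 ratio was 1.34 beside 0.62. Among the higher ones, GRMZM2G007546 and GRMZM5G819523 were expressed only by their dek44 level, with wild-type RPKM values of 0.0921 and 0.536. The counts depend on the scaling. After subtraction of the overall median these models and GRMZM5G844257 fell short of 2-fold higher. GRMZM2G434669, at a log2 ratio of -0.92 before it, was then past 2-fold lower. These few models were counted as a description, and nothing particular to the region was tested.

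The named genes most like each expressed model were sought by Euclidean distance over log2(RPKM + 1) in the 2 libraries, a measure that rests on 2 values per gene. Nearest to mn1 was isp1 (GRMZM2G023194), at a distance of 0.12, with an RPKM of 78.4 in dek44, against 22.7 in wild type, followed by SC26 at 0.181. Nearest to incw1 were kin2 (GRMZM2G136838) at 0.150, with 8.59 in dek44, against 0.639 in wild type, and mlo5 at 0.151. Nearest to GRMZM2G137954 were cesa6 (GRMZM2G113137) at 0.0629, with 90.8 in dek44, against 66.8 in wild type, and pdi12 at 0.0634.

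The size of the differences depends on the pseudocount and the scaling. Over 7 other settings the log2 ratio of mn1 ran from 1.27 to 1.95, that of incw1 from 1.29 to 3.55 and that of GRMZM2G137954 from -0.11 to 0.53. Both invertases thus stayed past 2-fold in each of them, while the abundant transporter model stayed within 2-fold. The order of the invertases was not fixed: with a pseudocount of 5 incw1, at 1.29, lay below mn1, at 1.74.

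**Figure D5:**
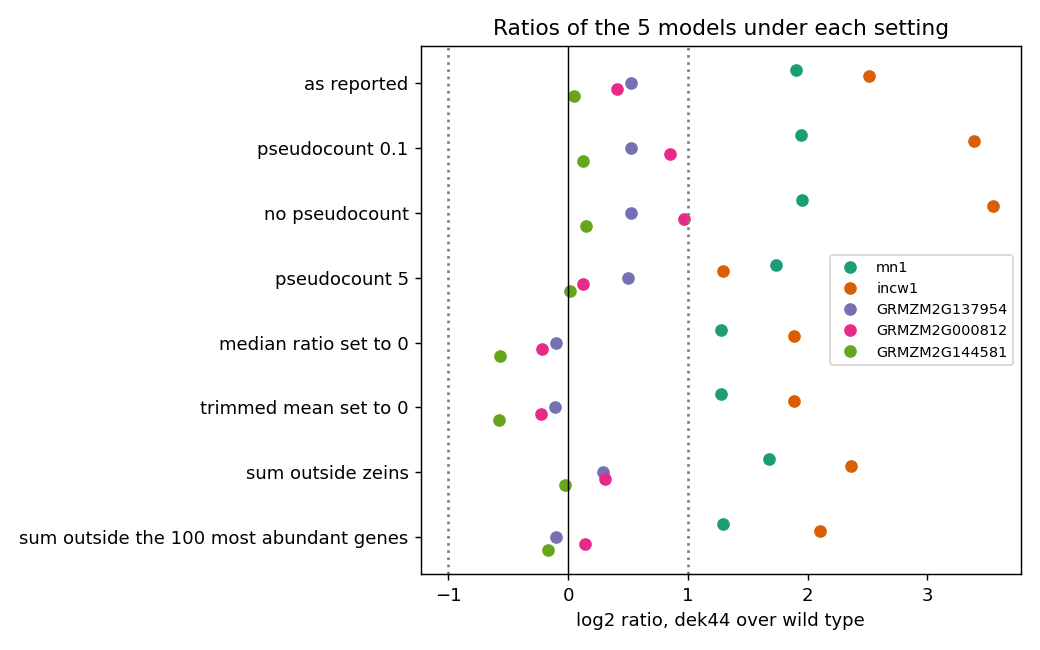
Log2 ratio, dek44 over wild type, of the 5 models under each pseudocount and scaling; points of 1 setting share a row and are offset for legibility, and dotted lines mark 2-fold. Mn1 and incw1 stay right of the 2-fold line in all 8 rows, and GRMZM2G137954 lies left of 0 in 3 of them.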

How the data were processed

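The deposited values are RPKM, 1 column per library, made by the authors; Bowtie 0.12.2 and the build B73 RefGen_v3 are listed per the submitters' processing notes, and RNA was extracted with Trizol and DNase I per the labels' protocols. The sources used here give no counting rule, strand use or gene length. Because each RPKM is whole reads over length and total, totals were recovered from low values, 22612657 reads for dek44 and 20861135 for wild type. Of 9720 genes above 0 in both libraries and under RPKM 2, 9706 (99.9%) came out whole, within 0.001 reads, for a length from 100 to 5000 bases. Reads of a gene are the smallest that fit, and true reads may be a multiple. Levels have 95% exact Poisson intervals and folds 95% exact conditional binomial (Clopper-Pearson) intervals; both cover counting error only. The procedure was tested on simulated data. Names came from the RefSeq table of Zm-B73-REFERENCE-NAM-5.0 through synonyms (16689 of 41406 identifiers, 40.3%), used for names and gene order only. The genes named are the 5 models, all other genes with cell wall invertase, inhibitor or SWEET names, the 2 most abundant of each other list, and the 2 nearest named genes of each expressed model. Sut1, MST1, hex2, the neighbours and the markers lie outside that rule and were named after their values were seen. Members and lists were chosen with earlier results of these data known. Alternatives were other pseudocounts, filters and scalings. Python 3.11.15, numpy 2.4.6, pandas 2.3.3, scipy 1.17.1 and matplotlib 3.10.9 were used.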

Additional observations from a re-analysis of the deposited data

How the results depend on the processing

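Of the 5 models, mn1 and incw1 were at least 2-fold higher in dek44 under all 7 other settings, and no model was past 2-fold lower under any. The log2 ratio of mn1, 1.90 as reported, was 1.74 with a pseudocount of 5, 1.28 after setting the median ratio to 0, 1.27 after setting the trimmed mean to 0, 1.68 with RPKM rescaled outside the zeins and 1.29 with RPKM rescaled outside the 100 most abundant genes. That of incw1, 2.51 as reported, was 3.39 with a pseudocount of 0.1, 1.29 with 5, 3.55 with none (chosen after seeing the data), 1.89 with the median ratio and 1.89 with the trimmed mean. GRMZM2G137954, 0.52 as reported, was -0.10, -0.11, 0.29 and -0.10 under those 4 scalings, in the order given for mn1, so its direction is not fixed by these data; the scalings move every gene by 1 factor. GRMZM2G000812 ranged from -0.22 to 0.97 and GRMZM2G144581 from -0.58 to 0.15, within counting error as taken from the smallest reads. Expressed genes at least 2-fold higher, 9529 as reported, were 4192 with a pseudocount of 5, 3703 with the median ratio, 3667 with the trimmed mean and 4829 outside the 100; those lower, 1116 as reported, were 543, 3284, 3304 and 2735. Sugar route genes at least 2-fold lower, 1 as reported, were 3 under the same 3 scalings. Their median, 1.60 as reported, was 1.83 with a pseudocount of 0.1, 0.74 with 5, 0.98 with the median ratio, 0.97 with the trimmed mean, 1.41 outside the zeins, 1.07 outside the 100, 0.91 with a filter at RPKM 5 and 1.26 without a filter. The fold of the summed invertases, 4.13, was 2.67 to 3.53 under the 4 scalings and that of the summed SWEET4 models, 1.44, was 0.934 to 1.23. Sums from recovered reads were not run, since the smallest reads of different genes may be different fractions of the true ones. No paired analysis was possible because there is 1 library per genotype, and leaving out replicates was not possible for the same reason. Depth limits GRMZM2G000812, GRMZM2G144581 and the wild-type level of incw1.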
